A study of Arabidopsis thaliana with 6 samples.

Results

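A group of 101 genes was set by its levels in 1 wild-type (WT) stem of Arabidopsis thaliana, the thale cress. The genes were taken from a table of 24434 genes by a rule with 2 conditions: the lowest of the 5 other libraries had to hold at least 5 FPKM, and that lowest value had to be at least 8 times the value in WT replicate 1. FPKM is fragments per kilobase of transcript, scaled to library size, and is a level per length. Of the 11840 genes that met the first condition, 101 met both (0.853%), and all 101 were protein-coding. The genes were thus selected on their FPKM in all 6 libraries, so the low level in WT replicate 1 is how the genes were picked and is described here without a test.

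The series compared stems of plants overexpressing Bnt07G011994 with WT stems, all of the Columbia ecotype, with 3 libraries of each genotype. Plants stood in a greenhouse at 22 °C on days of 15 h light and 9 h dark, stems were harvested near 10 cm, and 1 library came from the stems of 1 plant. No other allele, agent or treatment is named for either genotype. The labels do not give the number of transgenic lines, the promoter or source species of the transgene, or the time of harvest. Libraries are written OE1, OE2 and OE3 for overexpressor replicates 1 to 3, and WT1, WT2 and WT3 for WT replicates 1 to 3.

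A stem that is gaining length keeps its walls extensible. In growing cells, expansins and xyloglucan endotransglucosylases (XTHs) act on the links between cellulose and xyloglucan, pectin enzymes alter the matrix between the fibrils, and arabinogalactan proteins (AGPs) sit at the membrane and in the wall. Auxin, gibberellin and brassinosteroid raise the transcripts of many such genes, and the epidermis covers the elongating organ with wax and cutin, while xylem and fibres later lay down secondary walls of cellulose, xylan and lignin.

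WT1 stood apart from the other libraries at similar depth. The libraries held 44597288 to 45642240 reads assigned to genes. Spearman correlations across genes were 0.942 to 0.968 for pairs with WT1 and 0.983 to 0.993 for pairs without it. Of the 11840 genes with at least 5 FPKM in each of the other 5 libraries, called expressed genes from here on, WT1 was the lowest library for 31.9% and the highest for 43.4%, so its distance from the rest ran in both directions. Putting any other library in the place of WT1 in the same rule gave 0 genes for each of the 5. The tissue label was checked on IRX1, a cellulose synthase of secondary walls, which had 30.7 FPKM in WT1, 190, 132 and 198 FPKM in OE1, OE2 and OE3, and 163 and 172 FPKM in WT2 and WT3, so it was present in every library. In bulk stems, fewer cells of a type and less RNA per cell cannot be told apart, and this holds for each result that follows.

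Together the 101 genes made up 0.0434% of the summed FPKM in WT1, against 1.29%, 0.622% and 0.892% in OE1, OE2 and OE3 and 0.811% and 0.849% in WT2 and WT3. The median gene of the group stood at 1.11 FPKM in WT1, at 33.7, 16.7 and 18.1 FPKM in OE1, OE2 and OE3, and at 20.9 and 21.5 FPKM in WT2 and WT3. Over all 11840 genes the median was 19.1 FPKM in WT1, 18.8, 19.1 and 19.1 FPKM in OE1, OE2 and OE3, and 19.3 and 19.4 FPKM in WT2 and WT3, so the shortfall of WT1 was not shared by the table as a whole. No gene of the group was at 0 in WT1. The genes had 2 to 3534 reads there, with a median of 75, and 4 genes rested on at most 10 reads.

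**Figure D1:**
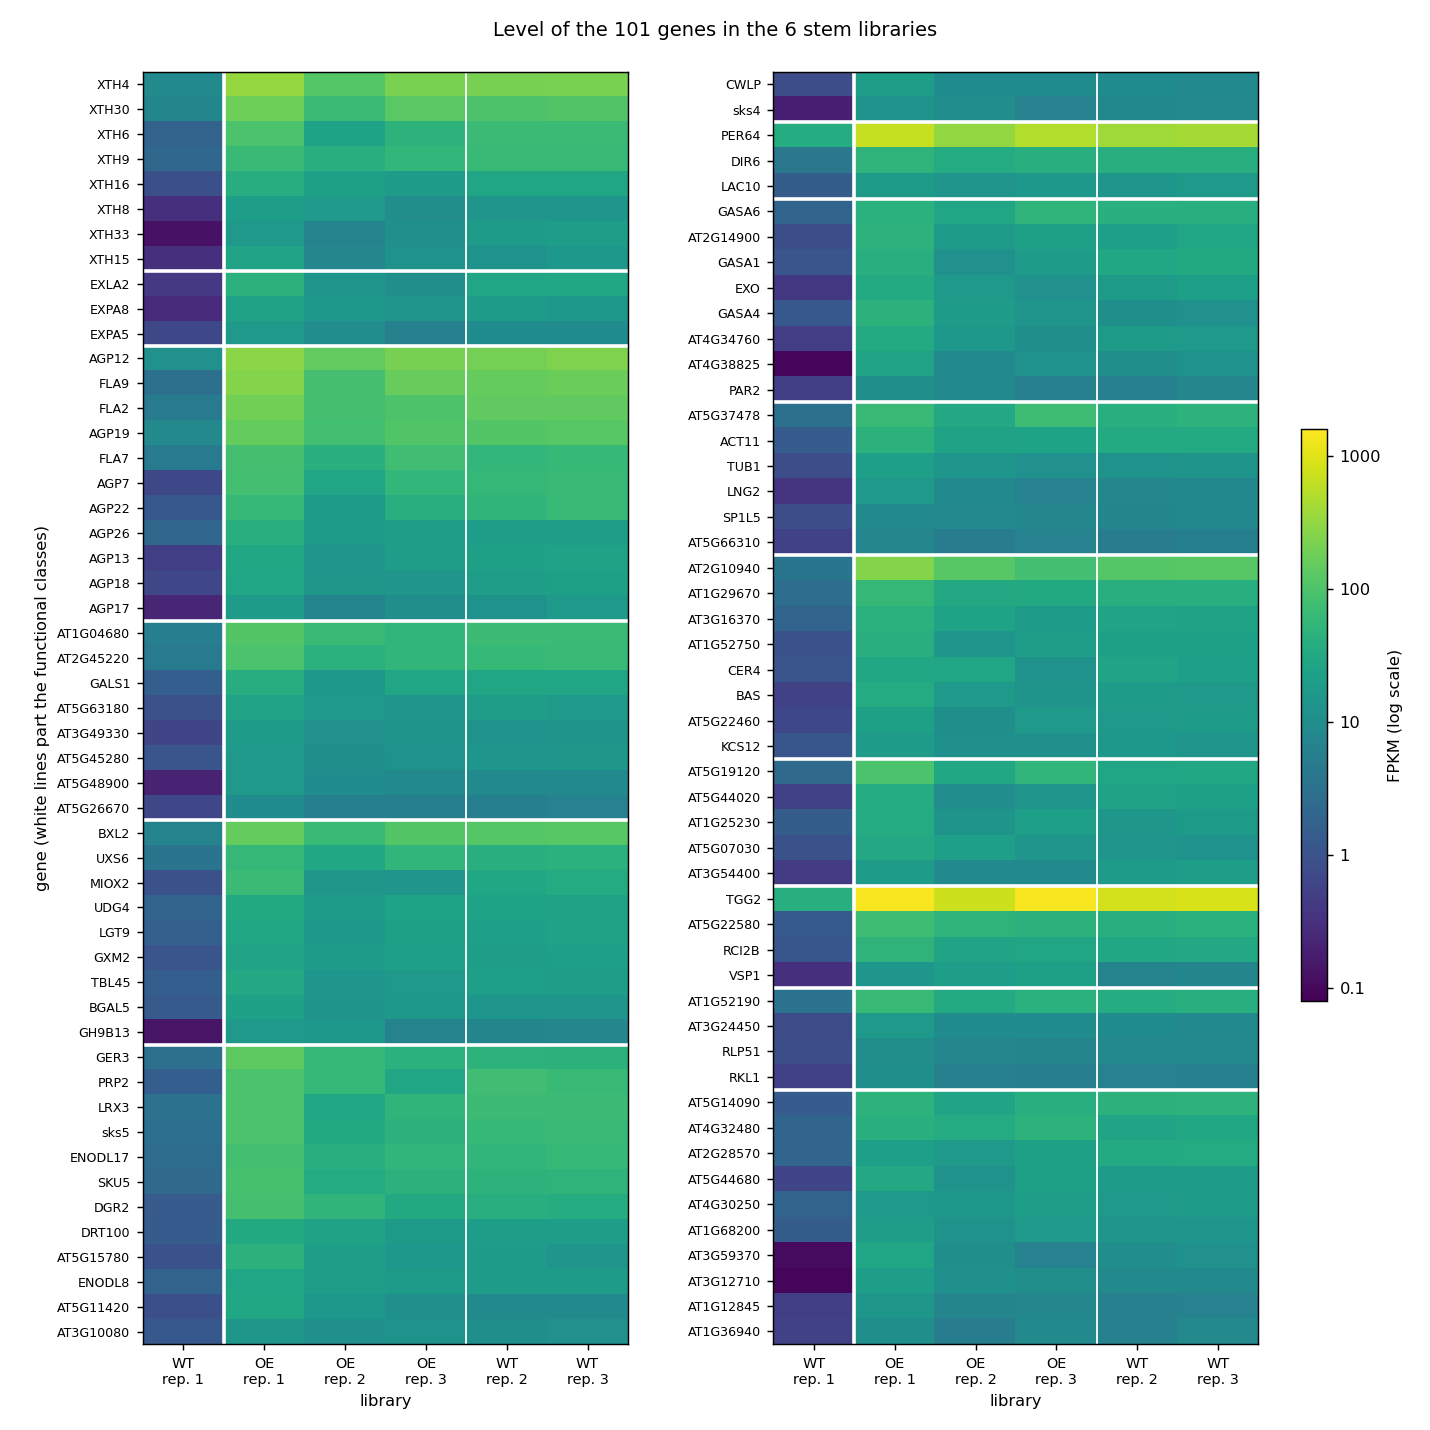
Level of each of the 101 genes (rows) in the 6 libraries (columns) in FPKM on a log colour scale, with WT1 at the left, then OE1 to OE3, then WT2 and WT3; white horizontal lines part the 14 functional classes, within which genes run from high to low mean. WT1 is the darkest column in every row, and OE1 is the brightest in 91 of 101 rows.

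The strength of the shortfall ranged widely. At a ratio of at least 16 there were 40 genes, at 32 there were 10 and at 64 there were 2. Just inside the threshold stood LRX3 at 8.17, AT2G28570 at 8.27 and AT4G30250 at 8.33. Just outside it stood the aquaporin gene PIP2E at 7.998, the auxin importer gene LAX2 at 7.997 and MYB46, a master regulator of secondary walls, at 7.94, so the edge of the group falls inside a continuous range of ratios.

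**Figure D2:**
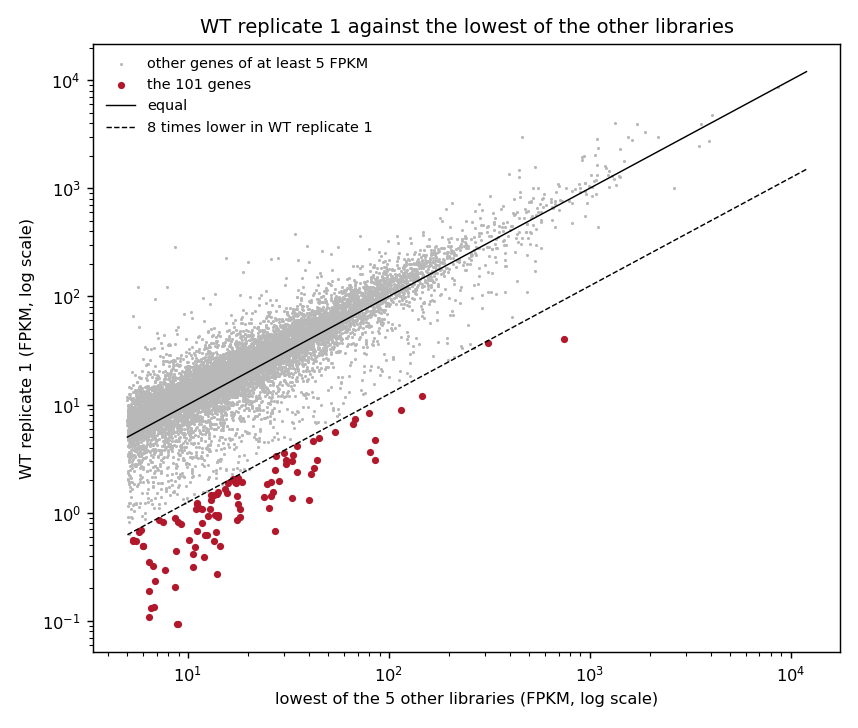
Level in WT1 (y axis, FPKM) against the lowest of the 5 other libraries (x axis, FPKM), both on log scales, for the 11840 genes with at least 5 FPKM on the x axis; red points are the 101 genes, the solid line marks equal levels and the dashed line a level 8 times lower in WT1. The red points continue the lower edge of the grey cloud, with no gap at the dashed line.

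The 2 genes past a ratio of 64 were AT4G38825 and AT3G12710. AT4G38825, a small auxin up RNA (SAUR) gene, had 0.0925 FPKM in WT1, 25.6, 8.85 and 12.8 FPKM in OE1, OE2 and OE3, and 10.9 and 12.3 FPKM in WT2 and WT3. Of its 485 exonic bases 433 overlap AT4G38820 on the opposite strand, and without strand the reads of the 2 loci cannot be told apart. Its WT1 value was 2 reads, so its ratio of 95.8 had an exact 95% counting interval of 26.2 to 796. AT3G12710, annotated as a protein of the DNA glycosylase superfamily, had 0.0938 FPKM in WT1, 19.5, 11.6 and 10.5 FPKM in OE1, OE2 and OE3, and 8.89 and 9 FPKM in WT2 and WT3, a ratio of 94.7 on 6 reads with an interval of 43.3 to 259. The next ratio, 59.3, belonged to AT3G59370, annotated as a vacuolar calcium-binding-like protein, which had 0.108 FPKM in WT1, 28, 10.9 and 6.42 FPKM in OE1, OE2 and OE3, and 10.1 and 11.8 FPKM in WT2 and WT3; its 3 reads in WT1 gave an interval of 20.0 to 290.4. For all 3 genes every other library lay far above WT1, while OE1 was also well above OE2 and OE3. The other 7 of the 10 largest ratios were those of EXPA8 (51.7), XTH33 (50.4), GH9B13 (50.2), AT5G48900 (42.5), AGP7 (40.3), XTH8 (33.7) and sks4 (33.6), all with products that act on or in the cell wall. The stretch of 250 bases before the start of the SAUR gene AT4G38825 (TAIR10.1, chr4:18121276-18121525, plus strand) and that of AT3G12710 (chr3:4042076-4042325, minus strand) are shown for these largest ratios. Capitals in the first mark 3 matches to CACATG, an E-box variant known from promoters of brassinosteroid and light-regulated genes. Capitals in the second mark 2 matches to the SMRE words, known as sites of secondary-wall MYB factors. Matches were read on either strand. The second stretch holds CACATG as well, left in lower case.
AT4G38825: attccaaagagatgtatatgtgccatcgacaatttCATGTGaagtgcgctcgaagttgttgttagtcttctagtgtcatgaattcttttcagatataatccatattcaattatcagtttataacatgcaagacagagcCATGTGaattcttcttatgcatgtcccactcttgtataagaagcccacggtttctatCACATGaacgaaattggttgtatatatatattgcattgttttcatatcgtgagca
AT3G12710: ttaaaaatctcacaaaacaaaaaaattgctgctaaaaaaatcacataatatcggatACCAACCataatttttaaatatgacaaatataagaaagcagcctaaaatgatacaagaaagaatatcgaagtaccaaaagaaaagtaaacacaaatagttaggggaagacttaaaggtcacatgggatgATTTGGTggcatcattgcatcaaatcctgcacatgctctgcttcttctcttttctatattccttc

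Genes of xyloglucan rearrangement were among the most frequent. Of the 12 genes matched as XTHs by their annotation and with at least 5 FPKM in the other libraries, 8 belonged to the group. Of all genes at that level 0.853% did. XTHs cut xyloglucan chains and join them to other chains. XTH4 (AT2G06850), the most abundant of the 8, had 8.96 FPKM in WT1, 331, 115 and 218 FPKM in OE1, OE2 and OE3, and 211 and 213 FPKM in WT2 and WT3. XTH30 (AT1G32170) had 7.4 FPKM in WT1, 181, 68 and 125 FPKM in OE1, OE2 and OE3, and 99.2 and 109 FPKM in WT2 and WT3. XTH6 (AT5G65730) had 1.86 FPKM in WT1, 95.9, 24.8 and 48.1 FPKM in OE1, OE2 and OE3, and 68.3 and 67.3 FPKM in WT2 and WT3. These 3 spanned a wide range of levels and all were highest in OE1 and lowest, among the other 5 libraries, in OE2. XTH9 (AT4G03210) had 2.29 FPKM in WT1, 64.8, 41 and 54.9 FPKM in OE1, OE2 and OE3, and 62.2 and 63.2 FPKM in WT2 and WT3. XTH33 (AT1G10550), whose product is anchored at the plasma membrane, had 0.13 FPKM in WT1, 17.1, 6.55 and 11.4 FPKM in OE1, OE2 and OE3, and 18.8 and 19.7 FPKM in WT2 and WT3, with 7 reads in WT1. XTH8 (AT1G11545) had 0.313 FPKM in WT1, 20.0, 16.7 and 10.6 FPKM in OE1, OE2 and OE3, and 13.7 and 14.4 FPKM in WT2 and WT3. XTH33 is one of 2 genes of the 101 with all 3 overexpressor libraries below WT2 and WT3. XTH15 and XTH16 had ratios of 26.0 and 20.0. The 4 remaining genes of the 12 did not meet the rule. TCH4, a touch-induced XTH, came nearest, with 7.90 FPKM in WT1, 225, 42.0 and 101 FPKM in OE1, OE2 and OE3, and 85.8 and 95.4 FPKM in WT2 and WT3. XTH28 had 75.2 FPKM in WT1, 52.4, 70.3 and 74.0 FPKM in OE1, OE2 and OE3, and 63.4 and 65.8 FPKM in WT2 and WT3, and was thus highest in WT1. XTH24 and XTH32 had ratios of 1.23 and 1.92. The match missed EXGT-A3 (AT2G01850), a xyloglucan enzyme gene under another name. It had 85.0 FPKM in WT1 and a ratio of 1.36, so it did not meet the rule either.

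Expansins, which loosen walls without cutting their polymers, gave 3 of the 13 expressed members of their family. EXPA8 (AT2G40610) had 0.271 FPKM in WT1, 23.8, 15.6 and 14 FPKM in OE1, OE2 and OE3, and 18 and 15.8 FPKM in WT2 and WT3. EXPA5 (AT3G29030) had 0.691 FPKM in WT1, 16.3, 10.2 and 5.86 FPKM in OE1, OE2 and OE3, and 9.85 and 9.86 FPKM in WT2 and WT3. EXLA2 (AT4G38400), an expansin-like gene, had 0.418 FPKM in WT1, 46.8, 14 and 10.6 FPKM in OE1, OE2 and OE3, and 27.2 and 30.0 FPKM in WT2 and WT3. EXLA2 had one of the widest spreads within the overexpressor, 4.43 times between OE1 and OE3. The ratios of the other 10 expressed expansin genes ran from 1.08 in EXLB1 to 7.57 in EXPA10. EXPA11 (AT1G20190) had a ratio of 59.5, with 0.0835 FPKM in WT1, but just missed the floor of 5 FPKM. It had 8.44, 5.11 and 5.55 FPKM in OE1, OE2 and OE3, and 4.97 and 5.35 FPKM in WT2 and WT3.

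The largest class after the structural wall proteins was made up of AGPs and fasciclin-like AGPs (FLAs), with 11 genes. These are heavily glycosylated proteins, many held at the plasma membrane by a lipid anchor. AGP12 (AT3G13520), an arabinogalactan peptide, had 12.1 FPKM in WT1, 283, 146 and 211 FPKM in OE1, OE2 and OE3, and 200.4 and 231 FPKM in WT2 and WT3. FLA9 (AT1G03870) had 3.06 FPKM in WT1, 255, 85.4 and 156 FPKM in OE1, OE2 and OE3, and 155 and 170.4 FPKM in WT2 and WT3. FLA2 (AT4G12730) had 4.69 FPKM in WT1, 191, 85.7 and 100.4 FPKM in OE1, OE2 and OE3, and 140.0 and 144 FPKM in WT2 and WT3. In these 3 genes OE2 was the lowest of the 5 libraries outside WT1, and the WT pair lay between OE2 and OE1. AGP19 (AT1G68725), one of the lysine-rich AGPs, had 8.43 FPKM in WT1, 151, 80.2 and 108 FPKM in OE1, OE2 and OE3, and 110.1 and 123 FPKM in WT2 and WT3. AGP7 (AT5G65390) had 0.672 FPKM in WT1, 83.1, 27.1 and 56.3 FPKM in OE1, OE2 and OE3, and 57.7 and 65.1 FPKM in WT2 and WT3, a ratio of 40.3 on 29 reads in WT1. The other 6 were FLA7, AGP13, AGP17, AGP18, AGP22 and AGP26, with ratios between 8.48 and 29.6. The group took in 8 of 20 expressed genes of the AGP family and 3 of 13 of the fasciclin-like family.

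Pectin enzymes gave 8 genes. AT1G04680, of the pectin lyase-like superfamily, had 5.52 FPKM in WT1, 113, 66.2 and 53.7 FPKM in OE1, OE2 and OE3, and 69.7 and 69.1 FPKM in WT2 and WT3. AT2G45220, of the pectin methylesterase and inhibitor superfamily, had 4.89 FPKM in WT1, 94.4, 44.8 and 54.6 FPKM in OE1, OE2 and OE3, and 59.8 and 64.3 FPKM in WT2 and WT3. GALS1 (AT2G33570), a synthase of the galactan side chains of pectin, had 1.53 FPKM in WT1, 38.6, 15.6 and 27.3 FPKM in OE1, OE2 and OE3, and 26.6 and 27.5 FPKM in WT2 and WT3. Each of these was highest in OE1. AT5G63180, also pectin lyase-like, had 0.911 FPKM in WT1, 25.7, 16.4 and 14.1 FPKM in OE1, OE2 and OE3, and 19.6 and 16.5 FPKM in WT2 and WT3. AT5G48900, of the same superfamily, had 0.204 FPKM in WT1, 16.7, 9.95 and 8.83 FPKM in OE1, OE2 and OE3, and 8.99 and 8.67 FPKM in WT2 and WT3. The other 3 were the pectin methylesterase inhibitor-like AT3G49330 and the pectin acetylesterases AT5G45280 and AT5G26670, with ratios of 19.3, 10.2 and 8.74. These families are large, and the share in the group was 3 of 18 expressed pectin lyase-like genes, 2 of 17 of the pectin methylesterase family and 2 of 9 pectin acetylesterases.

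Another 9 genes act on other wall sugars or make their precursors. BXL2 (AT1G02640), a beta-xylosidase, had 6.61 FPKM in WT1, 155, 66.4 and 114 FPKM in OE1, OE2 and OE3, and 114 and 122 FPKM in WT2 and WT3. MIOX2 oxidises myo-inositol to glucuronic acid, UDG4 makes UDP-glucuronic acid, and UXS6 turns that into UDP-xylose, so 3 of the 9 feed the same pool of nucleotide sugars. MIOX2 (AT2G19800) had 0.927 FPKM in WT1, 67.6, 14.9 and 14 FPKM in OE1, OE2 and OE3, and 29.6 and 35.1 FPKM in WT2 and WT3. UXS6 (AT2G28760) had 3.54 FPKM in WT1, 57.5, 30.1 and 53.3 FPKM in OE1, OE2 and OE3, and 41.2 and 44.2 FPKM in WT2 and WT3. UDG4 (AT5G39320) had 1.93 FPKM in WT1, 32.2, 18.7 and 25.2 FPKM in OE1, OE2 and OE3, and 24.8 and 23.9 FPKM in WT2 and WT3. The spread of MIOX2 within the overexpressor was the widest of the 101 genes, 4.84 times. GH9B13 (AT4G02290), of the family of endo-glucanases, had 0.135 FPKM in WT1, 16.2, 15.4 and 6.77 FPKM in OE1, OE2 and OE3, and 7.38 and 7.73 FPKM in WT2 and WT3, a ratio of 50.2 on 14 reads in WT1. The others were LGT9, a gene of a family of galacturonosyltransferase-like proteins, BGAL5, a beta-galactosidase, TBL45, of the family of wall acetyltransferases, and GXM2, with ratios of 9.26, 9.94, 9.18 and 16.9. GXM2, which methylates glucuronic acid on xylan, was the only gene of the 20 on the xylan list to meet the rule. None of the 7 measured genes on the list for secondary-wall cellulose did. Many of these genes were nonetheless well below the other libraries in WT1, short of the ratio of 8. CESA4 and IRX3, cellulose synthases, had ratios of 5.25 and 4.72, and ESK1 and IRX9, of xylan synthesis, 7.15 and 6.46. On the log2(FPKM + 1) scale, the median difference of WT1 from the median of the other 5 libraries was -2.45 over the expressed cellulose genes and -2.36 over the expressed xylan genes, against 0.06 over all expressed genes. GXM2 (AT4G09990) had 1.07 FPKM in WT1, 26.3, 18.1 and 21.4 FPKM in OE1, OE2 and OE3, and 19.6 and 21.5 FPKM in WT2 and WT3.

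The class of structural and apoplastic wall proteins held 14 genes. GER3 (AT5G20630), a germin, had 3.09 FPKM in WT1, 137, 57.3 and 43.7 FPKM in OE1, OE2 and OE3, and 48.8 and 46.8 FPKM in WT2 and WT3. PRP2 (AT2G21140), a proline-rich wall protein, had 1.55 FPKM in WT1, 97.7, 58.1 and 26.5 FPKM in OE1, OE2 and OE3, and 76.3 and 64.3 FPKM in WT2 and WT3. LRX3 (AT4G13340), a leucine-rich repeat extensin that takes part in wall assembly, had 3.35 FPKM in WT1, 94.6, 27.4 and 51.9 FPKM in OE1, OE2 and OE3, and 71.3 and 69.7 FPKM in WT2 and WT3. PRP2 was lowest in OE3 and LRX3 in OE2, so the 2 lower overexpressor libraries did not keep 1 order. SKU5 (AT4G12420), known for the direction of root growth, had 2.4 FPKM in WT1, 89.7, 34.8 and 45.6 FPKM in OE1, OE2 and OE3, and 47.1 and 49.4 FPKM in WT2 and WT3, and its relatives sks5 and sks4 had ratios of 11.1 and 33.6. The values of sks5 (AT1G76160) were 2.98 FPKM in WT1, 95.3, 33.1 and 46.9 FPKM in OE1, OE2 and OE3, and 60.1 and 64.3 FPKM in WT2 and WT3. Of the 4 expressed genes of the SKU5 family 3 were in the group, and the other, sks17, had a ratio of 6.21. The other 8 genes were ENODL8 and ENODL17 (early nodulin-like), DGR2 and AT5G11420 (both of the DUF642 family), DRT100, AT5G15780, AT3G10080 and CWLP, with ratios from 9.20 to 24.4.

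Coupling of monolignols, into lignin or lignans, was represented by 3 genes. PER64 (AT5G42180), a peroxidase known from the lignin of Casparian strips in roots, had 36.8 FPKM in WT1, 653, 313 and 504 FPKM in OE1, OE2 and OE3, and 385 and 413 FPKM in WT2 and WT3. DIR6 (AT4G23690), a dirigent protein that steers the coupling of monolignols into lignans, had 4.09 FPKM in WT1, 49.1, 34.8 and 39 FPKM in OE1, OE2 and OE3, and 39.9 and 40.6 FPKM in WT2 and WT3. LAC10 (AT5G01190), a laccase, had 1.48 FPKM in WT1, 17.8, 13.9 and 15.7 FPKM in OE1, OE2 and OE3, and 14.3 and 16.2 FPKM in WT2 and WT3. PER64 had the second-highest mean of the 101 genes. The 3 ratios, 8.49, 8.49 and 9.38, lay near the threshold. PER64 and LAC10 were 2 of the 8 expressed genes on the list of lignin laccases and peroxidases. The list of 13 genes of monolignol synthesis gave none.

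A class of 8 genes came from families tied to growth hormones, except for 1 of the 8, PAR2, a gene of light signalling. No hormone response was measured here. The GASA family of small cysteine-rich proteins, several of which respond to gibberellin, gave 4 of its 5 expressed genes. GASA6 (AT1G74670) had 1.95 FPKM in WT1, 44.1, 28.3 and 49.3 FPKM in OE1, OE2 and OE3, and 42.5 and 39 FPKM in WT2 and WT3. AT2G14900 had 0.847 FPKM in WT1, 47, 17.7 and 23 FPKM in OE1, OE2 and OE3, and 20.9 and 27 FPKM in WT2 and WT3. GASA1 (AT1G75750) had 1.09 FPKM in WT1, 41.7, 11.8 and 18.9 FPKM in OE1, OE2 and OE3, and 29.1 and 32.3 FPKM in WT2 and WT3. Of these, GASA6 was the one not highest in OE1. GASA4 (AT5G15230) had 1.22 FPKM in WT1, 45.4, 18.6 and 13.9 FPKM in OE1, OE2 and OE3, and 11.1 and 11.9 FPKM in WT2 and WT3. In GASA4 all 3 overexpressor libraries lay above WT2 and WT3. EXO (AT4G08950, EXORDIUM), a brassinosteroid-responsive gene needed for cell expansion, had 0.392 FPKM in WT1, 33.7, 16.4 and 12 FPKM in OE1, OE2 and OE3, and 17.7 and 21.3 FPKM in WT2 and WT3. It stood on the list of sugar and starvation genes as its only gene in the group. SAURs are short auxin-induced transcripts tied to cell expansion, and besides AT4G38825 the group held AT4G34760, which had 0.477 FPKM in WT1, 33.6, 15.4 and 10.9 FPKM in OE1, OE2 and OE3, and 17.5 and 15.9 FPKM in WT2 and WT3; together they were 2 of 16 expressed SAUR genes. PAR2 (AT3G58850), a light-regulated repressor of shade responses, had 0.495 FPKM in WT1, 11, 9.01 and 5.99 FPKM in OE1, OE2 and OE3, and 6.24 and 7.67 FPKM in WT2 and WT3. PAR2 and XTH15 were the 2 of 8 expressed genes on the list of shade and light responses. Among the hormone lists, gibberellin had 3 genes of 10 expressed, auxin 1 of 20, brassinosteroid 0 of 13, and cytokinin and ethylene 0 of 9. These counts did not follow the lists as a whole. WT1 was lowest for 18 of the 20 auxin genes and highest for 0. For the 10 gibberellin genes it was lowest for 5 and highest for 4. On the log2(FPKM + 1) scale, the median difference of WT1 from the median of the other 5 libraries was -1.74 for auxin and -0.24 for gibberellin. It was -0.30 for brassinosteroid and -0.14 for cytokinin and ethylene.

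The cytoskeleton was present with 6 genes. AT5G37478, of the TPX2 family of microtubule-associated proteins, had 3.09 FPKM in WT1, 62, 30.8 and 72.5 FPKM in OE1, OE2 and OE3, and 41.4 and 47.3 FPKM in WT2 and WT3. ACT11 (AT3G12110), an actin, had 1.4 FPKM in WT1, 46.1, 23.9 and 24.6 FPKM in OE1, OE2 and OE3, and 34.4 and 34.1 FPKM in WT2 and WT3. TUB1 (AT1G75780), a beta-tubulin, had 0.809 FPKM in WT1, 21.1, 14.3 and 11.7 FPKM in OE1, OE2 and OE3, and 12.8 and 13.1 FPKM in WT2 and WT3. ACT11 and TUB1 were highest in OE1, while AT5G37478 was highest in OE3. LNG2 (AT3G02170, LONGIFOLIA2), which promotes lengthwise cell growth in leaves, had 0.349 FPKM in WT1, 17.1, 8.7 and 6.44 FPKM in OE1, OE2 and OE3, and 7.79 and 8.1 FPKM in WT2 and WT3. The last 2 were SP1L5, of a family that organises cortical microtubules, and the kinesin-like AT5G66310, with ratios of 9.27 and 9.80. The other 7 expressed beta-tubulin genes had ratios from 1.12 (TUB2) to 5.52 (TUB8), and the other 5 expressed actin genes from 0.995 (ACT7) to 5.51 (ACT3). On the list for microtubules of the secondary wall, 1 of 26 expressed genes met the rule, while WT1 was lowest for all 26. Their median log2 difference of WT1 from the median of the other 5 libraries was -1.66. TUB1 was the only gene of the 101 whose 250 bases before the start held TERE, a motif of genes of tracheary elements. The capitals mark it (TAIR10.1, chr1:28453821-28454070, minus strand).
TUB1: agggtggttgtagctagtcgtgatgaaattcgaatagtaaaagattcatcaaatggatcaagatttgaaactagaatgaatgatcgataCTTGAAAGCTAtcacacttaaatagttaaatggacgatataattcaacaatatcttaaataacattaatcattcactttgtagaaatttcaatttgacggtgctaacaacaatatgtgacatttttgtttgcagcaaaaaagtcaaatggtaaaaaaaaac

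Surface and other lipids were represented by 8 genes. AT2G10940, of the lipid transfer and seed storage protein superfamily, had 3.68 FPKM in WT1, 248, 119 and 80.8 FPKM in OE1, OE2 and OE3, and 118 and 121 FPKM in WT2 and WT3. CER4 (AT4G33790), which makes the primary alcohols of stem wax, had 1.09 FPKM in WT1, 28.5, 26.6 and 12.9 FPKM in OE1, OE2 and OE3, and 25.3 and 21 FPKM in WT2 and WT3. KCS12 (AT2G28630), of the enzymes that elongate very long fatty acids, had 1.11 FPKM in WT1, 18.8, 11.4 and 11.7 FPKM in OE1, OE2 and OE3, and 15.7 and 14.1 FPKM in WT2 and WT3. CER4 was high in OE1 and OE2 alike and lower in OE3. BAS (AT1G78950), which makes the triterpene beta-amyrin, had 0.551 FPKM in WT1, 34.9, 16.1 and 13.5 FPKM in OE1, OE2 and OE3, and 18.2 and 16.3 FPKM in WT2 and WT3. The GDSL lipase-like AT1G29670 had 2.84 FPKM in WT1, 58.3, 30.8 and 32.7 FPKM in OE1, OE2 and OE3, and 40.6 and 39.1 FPKM in WT2 and WT3, and AT3G16370, of the same family, had 1.91 FPKM in WT1, 44.3, 24.5 and 17.2 FPKM in OE1, OE2 and OE3, and 26.1 and 23.6 FPKM in WT2 and WT3. The alpha/beta-hydrolases AT1G52750 and AT5G22460 had ratios of 14.4 and 16.3. CER4 was the only one of 21 expressed genes on the epidermis and cuticle list to meet the rule. WT1 was nonetheless the lowest library for all 21, against 31.9% of all expressed genes. On the log2(FPKM + 1) scale, their median difference of WT1 from the median of the other 5 libraries was -1.43, against 0.06 over all expressed genes. CER1, a wax alkane gene and the next of the list by ratio, at 6.30, had 19.5 FPKM in WT1, 183, 142 and 123 FPKM in OE1, OE2 and OE3, and 157 and 146 FPKM in WT2 and WT3. The stretch before BAS (TAIR10.1, chr1:29688801-29689050, minus strand) is shown because it holds an L1 box, a motif of epidermal genes, in capitals.
BAS: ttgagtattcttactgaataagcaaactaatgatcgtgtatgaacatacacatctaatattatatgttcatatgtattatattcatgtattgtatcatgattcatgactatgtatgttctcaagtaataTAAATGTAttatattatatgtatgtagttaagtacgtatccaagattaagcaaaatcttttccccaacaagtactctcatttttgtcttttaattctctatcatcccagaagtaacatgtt

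Defence and storage genes were few but included the most abundant of the 101. TGG2 (AT5G25980), a myrosinase that splits glucosinolates and is known from guard cells and phloem idioblasts, had 40.2 FPKM in WT1, 1439, 741 and 1456 FPKM in OE1, OE2 and OE3, and 801 and 863 FPKM in WT2 and WT3. TGG1, the other myrosinase of shoots, fell just short of the rule, with 33.5 FPKM in WT1, 615, 268 and 448 FPKM in OE1, OE2 and OE3, and 265 and 288 FPKM in WT2 and WT3; it was chosen after its values were seen. The list of glucosinolate genes, 14 of them expressed, had none in the group. VSP1 (AT5G24780), a jasmonate-induced vegetative storage protein, had 0.318 FPKM in WT1, 14.5, 19.5 and 21.8 FPKM in OE1, OE2 and OE3, and 6.67 and 7.38 FPKM in WT2 and WT3. In VSP1 the 3 overexpressor libraries lay above WT2 and WT3. RCI2B (AT3G05890), a small membrane protein induced by cold and salt, had 1.11 FPKM in WT1, 48.9, 25.5 and 27.9 FPKM in OE1, OE2 and OE3, and 29.9 and 31.5 FPKM in WT2 and WT3. AT5G22580, annotated as stress-responsive, had 1.31 FPKM in WT1, 72.6, 49.8 and 46.9 FPKM in OE1, OE2 and OE3, and 40.3 and 44.2 FPKM in WT2 and WT3.

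The remaining 19 genes were 3 aspartyl proteases and 2 phosphatases, 4 genes of receptors and transport, and 10 that fall in no class. The protease gene AT5G19120 had 2.48 FPKM in WT1, 97.7, 28.5 and 54.3 FPKM in OE1, OE2 and OE3, and 27.2 and 30.5 FPKM in WT2 and WT3. AT3G54400, another of them, had 0.446 FPKM in WT1, 19.2, 8.71 and 9.01 FPKM in OE1, OE2 and OE3, and 19.1 and 19.4 FPKM in WT2 and WT3. The acid phosphatase AT5G44020 had 0.557 FPKM in WT1, 36.4, 10.2 and 13.7 FPKM in OE1, OE2 and OE3, and 24 and 22.1 FPKM in WT2 and WT3. In AT5G19120 OE1 was more than 3 times WT2, whereas in AT3G54400 it lay between WT2 and WT3, with OE2 and OE3 below both. The phosphoesterase AT1G25230 and the protease AT5G07030 had ratios of 9.20 and 13.6. AT1G52190, a transporter known as NPF1.2 that moves nitrate, had 3.43 FPKM in WT1, 64.5, 33.2 and 44.1 FPKM in OE1, OE2 and OE3, and 36.2 and 40.2 FPKM in WT2 and WT3. AT3G24450, RLP51 and RKL1, a metal-binding protein and 2 receptor-like proteins, had ratios of 11.8, 8.36 and 10.2. AT5G14090, given by RefSeq the synonym LAZY1, a gene of shoot gravitropism, had 1.42 FPKM in WT1, 48.5, 26 and 40.9 FPKM in OE1, OE2 and OE3, and 46.8 and 47.4 FPKM in WT2 and WT3. AT4G32480 (DUF506) had 1.93 FPKM in WT1, 41.8, 34.8 and 48.2 FPKM in OE1, OE2 and OE3, and 25.8 and 28.7 FPKM in WT2 and WT3. AT2G28570, uncharacterised, had 2.04 FPKM in WT1, 21.6, 16.8 and 22.7 FPKM in OE1, OE2 and OE3, and 34.1 and 34.5 FPKM in WT2 and WT3. AT5G44680, of the DNA glycosylase superfamily like AT3G12710, had 0.625 FPKM in WT1, 31.2, 12.4 and 22.1 FPKM in OE1, OE2 and OE3, and 19.3 and 18.1 FPKM in WT2 and WT3. AT1G68200, AT4G30250, AT1G12845 and AT1G36940 had ratios between 8.33 and 12.2.

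The RefSeq notes give a location for 64 of the 101 genes. Of these, 21 (32.8%) were placed in the cell wall, against 3.74% of all expressed genes with a location, and 24 (37.5%) in the endomembrane system, which lies inside the cell, against 10.9%. A gene can carry several locations. The apoplast was named for 21.9% of the 64, against 1.72%, and the chloroplast for 7.81%, against 24.6%. Of the 61 genes with a process in the notes, 5 (8.20%) were assigned to unidimensional cell growth, against 0.388%, and 3 to cell wall loosening. Such notes are partly drawn from gene families and earlier expression data and are given as a description.

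Few of the genes stood on the lists of tissue markers. Of 7 lists of tissue markers, 6 had no gene in the group, namely xylem vessel cell death, trichome and stomata, phloem, cambium and procambium, flower and pollen, and photosynthesis. The summed level of the phloem list was 441 FPKM in WT1, 384 to 410 FPKM in the overexpressor libraries, and 550 and 558 FPKM in WT2 and WT3, with none of its 17 genes at 0 in WT1. The cambium list summed to 228 FPKM in WT1, to 260 to 280 FPKM in the overexpressor libraries, and to 287 and 296 FPKM in WT2 and WT3, with 1 gene at 0 in WT1. These sums were below those of WT2 and WT3 but far from 8 times lower. The photosynthesis list summed to 41535 FPKM in WT1, to 41095 to 43813 FPKM in the overexpressor libraries, and to 35654 and 36002 FPKM in WT2 and WT3. The vessel cell death list summed to 3115 FPKM in WT1, to 1507 to 1975 FPKM in the overexpressor libraries, and to 2307 and 2357 FPKM in WT2 and WT3. That sum was carried by GAMMA-VPE, a vacuolar protease, at 2849 FPKM in WT1, while the xylem proteases XCP1 and XCP2 had ratios of 7.17 and 4.84. The epidermis list summed to 4177 FPKM in WT1, to 6372 to 8552 FPKM in the overexpressor libraries, and to 6876 and 7097 FPKM in WT2 and WT3, with no gene at 0. The flower list summed to 118 FPKM in WT1, to 93.2 to 119 FPKM in the overexpressor libraries, and to 138 and 139 FPKM in WT2 and WT3, with 3 genes at 0 in WT1, and the trichome list to 105 FPKM in WT1, to 65.6 to 79.4 FPKM in the overexpressor libraries, and to 75.7 and 76.5 FPKM in WT2 and WT3, with 4 at 0. The part of the tissue makeup of each stem in the low levels of the 101 genes was not tested. Over all 31 lists, 11 held a gene of the group and 20 held none, and 74 of the 101 genes stood on no list.

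The rule set no order among the overexpressor libraries, but it used their values, since a low value in any of them left a gene out. Without OE2 the rule gave 143 genes, and without OE1 it gave 101. The 101 genes shared an order in these libraries. OE1 was the highest overexpressor library for 94 of the 101 genes (93.1%), against 29.1% of the 11840 expressed genes. It was the highest of all 6 libraries for 91 (90.1%), against 18.3%. OE2 was the lowest overexpressor library for 63 (62.4%), against 30.4%, and OE3 for 37 (36.6%), against 23.0%. The median ratio of OE1 to the mean of OE2 and OE3 was 1.80, against 0.964 over all expressed genes. The median spread between the highest and the lowest overexpressor library was 2.09 times, against 1.19 times over all expressed genes, while WT2 and WT3 differed by a median of 1.07 times. The 7 genes not highest in OE1 were highest in OE3 and were TGG2, VSP1, GASA6, AT5G37478, AT4G32480, AT4G30250 and AT2G28570. By class, the median ratio of OE1 to the mean of the other two ran from 1.33 in the lignin and lignan class to 2.37 in the class of hormone-family genes and PAR2. Genes were not independent here, and 3 plants give no test of their order.

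**Figure D3:**
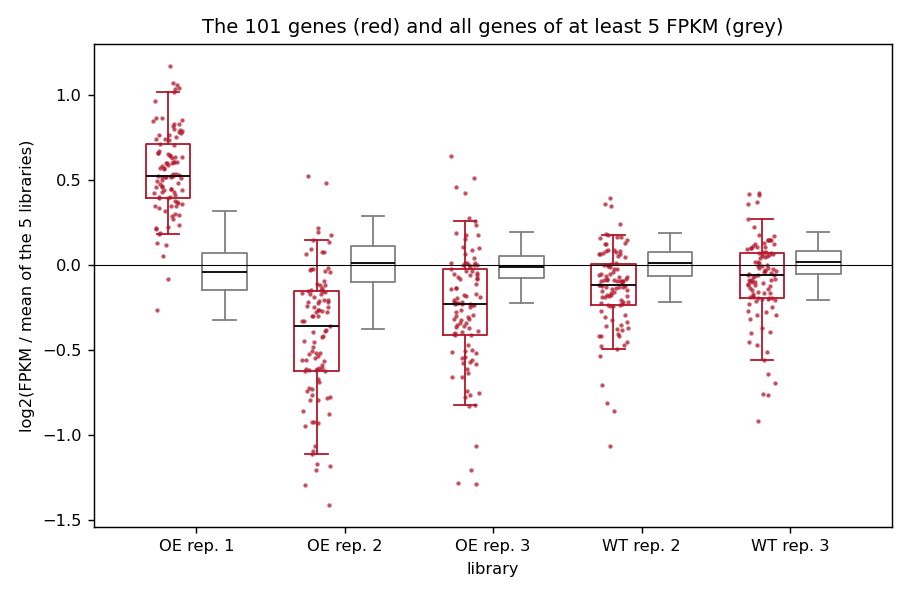
Level in each of OE1 to OE3, WT2 and WT3 relative to the mean of those 5 libraries (y axis, log2), for the 101 genes (red points and boxes) and for the 11840 genes of at least 5 FPKM (grey boxes); boxes span the quartiles with the median as a line, and whiskers the 5th to 95th percentile. The red box of OE1 lies above 0 and that of OE2 below it, while the grey medians stay near 0 in each library.

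Whether these genes differed between the genotypes was asked without WT1, which the rule had fixed as low. The contrast was still not free of the rule, which set a lower bound on each of these 5 libraries. Genes low in any of them were left out, and without OE2 the rule gave 143 genes. In limma on log2(FPKM + 1), with 3 overexpressor libraries against WT2 and WT3 and Benjamini-Hochberg adjustment over 16870 genes, 0 of the 101 passed an adjusted p of 0.05, where 23 genes (0.136%) passed over the whole table, 16 higher (0.0948%) and 7 lower (0.0415%). At an unadjusted p of 0.05, 4 of the 101 (3.96%) passed in limma, against 10.6% of all genes tested. The log2 fold changes of the 101 genes ran from -0.77 (XTH33) to 1.27 (VSP1) with a median of 0.09, against -0.02 over all genes tested. Of the 101, 60 were positive, against 44.5% of all genes tested. The direction of the median rested on OE1: without OE1 it was -0.18. The 3 genes of smallest p are given as values only. VSP1 had a log2 fold change of 1.27 with SE 0.17 and an adjusted p of 0.0771 in limma. AT2G28570 had a log2 fold change of -0.73 with SE 0.13 and an adjusted p of 0.153 in limma. AT4G32480 had a log2 fold change of 0.58 with SE 0.14 and an adjusted p of 0.259 in limma. Without OE1, 145 of the 16870 genes passed in limma, 3 of them in the group (VSP1, AT3G54400 and MIOX2). Without OE2, 172 passed, 2 of them in the group (TGG2 and AT2G28570).

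For 91 of the 101 genes the overexpressor libraries overlapped WT2 and WT3. All 3 overexpressor libraries lay above the pair for 8 genes, AT3G12710, AT5G22580, VSP1, AT5G07030, AT4G32480, AT1G12845, AT5G11420 and GASA4, and over all expressed genes this held for 11.5%. They lay below the pair for XTH33 and AT2G28570, and over all expressed genes this held for 21%. By class, the median log2 fold change ran from -0.20 in the AGP and FLA class to 0.43 in the defence and storage class. It was negative for 9 of 11 AGP and FLA genes and 6 of 8 XTH genes, where 44.5% of all genes tested were positive. With all 3 WT libraries in the model, 0 of the 101 genes and 2 of 16870 (0.0119%) passed in limma, and 1 of the 101 had an unadjusted p under 0.05, against 5.43% of all genes. All 101 log2 fold changes were then positive with a median of 1.17, a direction that the choice of the genes by WT1 had set.

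**Figure D4:**
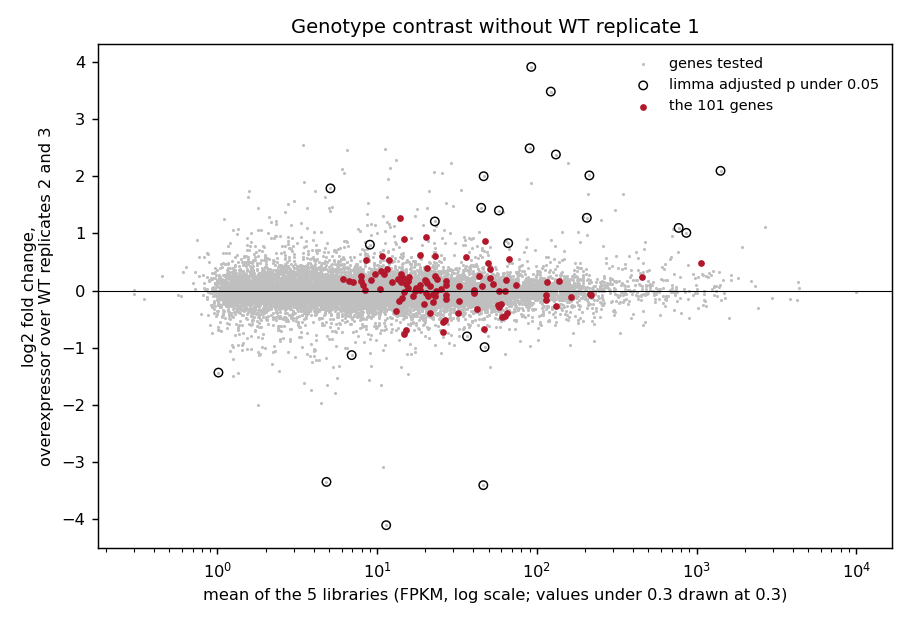
Log2 fold change of the overexpressor over WT2 and WT3 on log2(FPKM + 1) (y axis) against the mean of the 5 libraries (x axis, FPKM, log scale); grey points are the 16870 genes tested, open circles the 23 past an adjusted p of 0.05 in limma, and red points the 101 genes. The red points lie between -0.77 and 1.27, and none of them is circled.

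Promoter motifs were counted, on both strands, in windows from 250 bases before to 50 bases after the annotated start, for all 101 genes, for 11839 of the expressed genes and for all 27443 protein-coding genes with a window. SMRE words (8 in all, namely the word ACCAAAC, the word ACCAAAT, the word ACCAACC, the word ACCAACT, the word ACCTAAC, the word ACCTAAT, the word ACCTACC and the word ACCTACT) occurred in 42.6% of the 101, in 33.8% of the expressed genes and in 33.6% of all genes. The L1 box (TAAATGCA or TAAATGTA) occurred in 10 of the 101 (9.90%), against 5.20% and 5.10%, and 2 of the 10 were among the 8 surface lipid genes. TERE occurred in TUB1 only, against 0.498% and 0.448%. The G-box (CACGTG) was found in 4.95%, against 9.13% and 7.68%, the telo-box (AAACCCTA) in 1.98%, against 5.31% and 6.22%, and the evening element (AAAATATCT) in none, against 3.18% and 2.82%. Another 5 motifs were added after the data were seen. CACATG occurred in 26 of the 101 (25.7%), against 12.2% and 12.9%, among them 4 of the 8 genes of the class of hormone families and PAR2, the SAUR promoter printed above included, and 4 of the 8 surface lipid genes. TGGGCC, a TCP site, occurred in 3.96%, against 21.3% and 15.5%. The brassinosteroid word CGTGTG or CGTGCG, the auxin word TGTCGG or TGTCTC and the gibberellin word TAACAAA occurred in 8.91%, 15.8% and 15.8% of the 101, against 8.42%, 18.1% and 18.3% of the expressed genes. Some motifs can share bases, such as the G-box and the brassinosteroid word. A match is a run of letters and not a bound site, and no test was made.

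**Figure D5:**
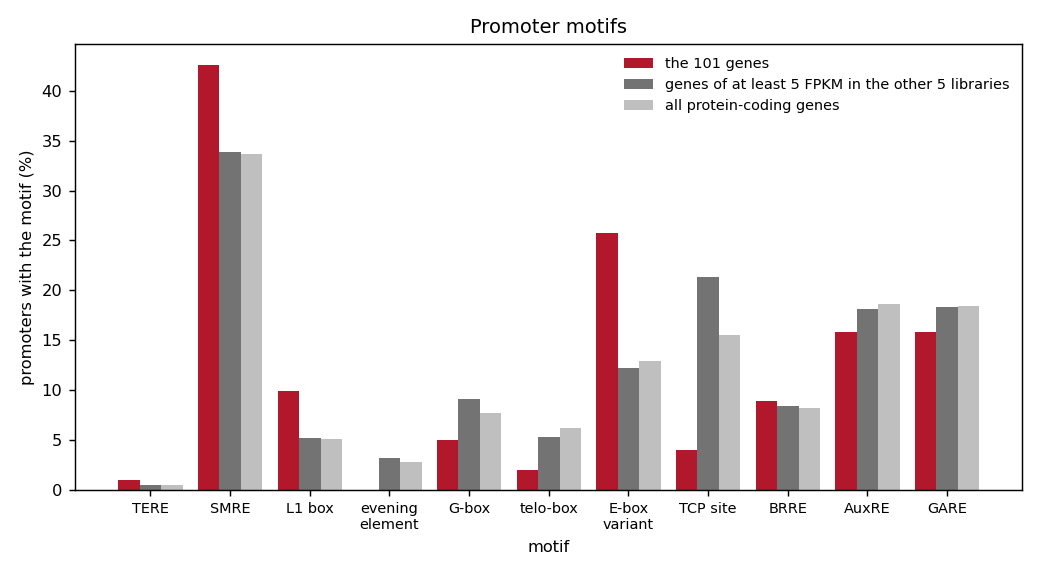
Share of promoter windows (y axis, percent, from 0) with each of 11 motifs (x axis) in the 101 genes (red), in the expressed genes (dark grey) and in all protein-coding genes (light grey). CACATG stands at 25.7% in the 101 genes and 12.2% in the expressed genes, and TGGGCC at 3.96% and 21.3%.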

How the data were processed

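The authors deposited 1 table of FPKM values for 24434 genes in 6 libraries, each column named for its sample, and 0 columns were left unused. HISAT2 was among the tools, per the submitters' processing notes, while build, annotation, counter and use of strand were not given in the sources used here. Multiplying FPKM by RefSeq TAIR10.1 exonic length gave whole numbers of reads (tolerance 0.1 reads) for 100% of values, so depth was recovered and TAIR10.1 coordinates, gene structures and sequences are used, a build inferred from the values. Counting intervals are exact 95% intervals of a ratio of reads and cover counting error only.

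The members, gene lists, functional classes, families and motifs were chosen with earlier results of these data known. Classes came from RefSeq products. The 31 lists held 709 symbols, of which 659 matched a locus. Genes were named by rule: the 10 largest ratios, the 6 highest means, up to 4 genes of highest mean per list and class, the 3 genes on each side of the threshold, the 3 of smallest p and the 3 of widest spread in the overexpressor; other names were chosen after their values were seen. Expressed genes are those with at least 5 FPKM in each library but WT replicate 1.

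Genotypes were tested with limma 3.58.1 (R 4.3.3), intensity trend on, two-sided, using log2(FPKM + 1) of the 16870 genes that averaged 1 FPKM or more, with Benjamini-Hochberg adjustment and a threshold of 0.05. It was tested on simulated data. Each library is 1 plant per the labels, so the spread behind a p-value joins plant and preparation differences. BLAST 2.17.0, at 95% identity over 50% of the length, matched 3 members to another locus (AT4G38825, CWLP and AGP19). Each match was the locus that overlaps the member on the opposite strand, and no member had a copy elsewhere. A locus on the opposite strand overlaps over 10% of the exonic bases of 10 genes (AT4G38825, XTH15, DGR2, AT5G14090, GASA6, TUB1, CWLP, AGP19, AT3G16370 and AGP26), whose levels are uncertain to that extent. The transgene itself was not analysed here. Alternatives covered pseudocount, filter, scaling, voom on recovered reads (32 calls), a replicate block and each library left out, and, for the gene group, its thresholds.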

Additional observations from a re-analysis of the deposited data

How the results depend on the processing

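The group held 281 genes at a ratio of 4, 40 at a ratio of 16, 210 with a floor of 1 FPKM and 186 when the median of the 5 libraries replaced the lowest; lists with a gene of the group numbered 18 at a ratio of 4 and 7 at 16, against 11. Leaving out 1 library gave 101 to 143 genes and 11 to 15 lists. The share highest in overexpressor replicate 1, 93.1%, was 94.1% with median ratio scaling, 81.1% at a ratio of 4 and 95% at 16, settings chosen after seeing the data. For the overexpressor against WT replicates 2 and 3, limma called 23 genes, but 36 with a filter of 5 FPKM, 53 with median ratio scaling, and 2 to 172 with 1 library left out, the lowest without WT replicate 2 and the highest without overexpressor replicate 2. Genes of the group past the threshold numbered 0 to 3 with 1 library left out, and their median log2 fold change ran from -0.18 to 0.21. With all WT libraries, limma called 2 genes, 4 with no filter, 1 with voom, and 1 to 23 with 1 library left out, the highest without WT replicate 1; the group's median log2 fold change was then 0.087 to 1.79, the lowest without WT replicate 1. The causes were not tested. The replicate block, with the number as a term, gave 78 calls without WT replicate 1, 2 of them in the group. These were VSP1 at 1.43 (adjusted p 0.0166 in limma) and AT3G54400 at -1.04 (adjusted p 0.0338 in limma). There, overexpressor replicate 1 had no WT library of its number, so the comparison rested on replicates 2 and 3. The log2 fold changes were those of the fit without overexpressor replicate 1, so this block is not a separate check. With all WT libraries the block gave 0 calls, and the group had 0. Deviations of same-numbered samples from their group means had correlations of -0.60, -0.59 and 0.03. The WT mean includes WT replicate 1, which stood apart and shapes the deviations of all WT libraries. These correlations therefore cannot show whether the numbers mark pairs. Of 136 recomputed values, 105 kept their side and direction or stayed within the limits set for them.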

Other observations

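The 101 genes were built more simply than other expressed genes. They had a median of 3 exons, against 6 over the 11840 expressed genes, and 22 (21.8%) had a single exon, against 9.13%. Their median exonic length was 1506 bases, against 1797.5. They lay on all 5 chromosomes, with 23, 15, 16, 20 and 27 genes on chromosomes 1 to 5.

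Of the 16 genes past the threshold as higher in the overexpressor than in WT replicates 2 and 3, 10 stood on the photosynthesis list of 29 genes, none of which was in the group of 101. LHB1B1, a light-harvesting chlorophyll-binding protein gene named after its values were seen, had 65.8, 55.2 and 79.5 FPKM in overexpressor replicates 1, 2 and 3, against 11.8, 16.5 and 15.1 FPKM in WT replicates 1, 2 and 3.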
